A study of Mus musculus with 4 samples.

Results

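Trim33 occupancy in mouse T helper 17 (Th17) cells was examined around Ccr7 and Cxcr4, a pair of chemokine receptor genes that each lie within a cluster of Trim33 summits. A summit is the base of highest signal in a peak of the chromatin immunoprecipitation sequencing (ChIP-seq) data. Members were chosen by the position of the summit: every peak whose summit fell inside either gene, or within 100 kb of it, was taken. The rule gave 40 of the 27050 peaks of the deposited list, 19 at Ccr7 and 21 at Cxcr4. The rule fixes the position of each member, and these genes were put forward as summit clusters with the results known. Counts and positions are therefore given as a description, with no test.

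The series has 2 Trim33 ChIP libraries and 2 input DNA libraries, all from primary C57BL/6 T cells. Naive CD4+ cells from spleen and lymph nodes were stimulated through CD3 and CD28 with IL-6 and TGF-b, with IL-4 and IFN-g blocked by antibodies, and became Th17 cells in culture. There is no other genotype, treatment or time point. The authors deposited 1 peak list of the merged ChIP replicates, so each peak has 1 value, and neither the spread between cultures nor the depth of a library can be given. Members of 1 locus are neighbours on the same chromosome and are not replicates of each other, and the peak list holds no measure by which the labelled cell type could be checked. The fold enrichment of a peak is the authors' ratio of signal at the summit to background, and its median over the whole list was 6.00, with quartiles of 4.87 and 7.76.

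Trim33 is a ubiquitin ligase with a chromatin-reading module that binds modified histone H3, and it joins SMAD proteins of the TGF-beta pathway. Ccr7 encodes the G protein-coupled receptor that guides naive and central memory T cells into lymph nodes along the chemokines CCL19 and CCL21. Cxcr4 encodes the receptor for CXCL12, which holds haematopoietic cells in the bone marrow and steers T cells in many tissues. CCR7 is lost from most T cells as they turn from naive into effector cells.

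Sequence is shown for 2 annotated starts that a member summit touched, as places where the clusters meet a transcript. A Ccr7 peak, described below, covers the upper end of Ccr7, and the sequence and strand of Ccr7 were not used here. A summit fell in the 250 bases before the start of Cxcr4 and another in the 250 bases before the start of Gm32249, a long noncoding RNA gene beside Ccr7. Both sequences are from RefSeq (mm10), written 5′ to 3′ on the strand of the gene. Capitals mark matches to any of 9 motifs searched.
Cxcr4, chr1:128592300-128592549, minus strand: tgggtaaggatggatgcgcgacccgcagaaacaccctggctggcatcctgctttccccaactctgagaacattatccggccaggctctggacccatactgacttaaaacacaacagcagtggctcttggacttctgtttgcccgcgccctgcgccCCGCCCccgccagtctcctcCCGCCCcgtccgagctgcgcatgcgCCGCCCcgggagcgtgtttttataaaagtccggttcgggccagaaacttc
Gm32249, chr11:99168062-99168311, plus strand: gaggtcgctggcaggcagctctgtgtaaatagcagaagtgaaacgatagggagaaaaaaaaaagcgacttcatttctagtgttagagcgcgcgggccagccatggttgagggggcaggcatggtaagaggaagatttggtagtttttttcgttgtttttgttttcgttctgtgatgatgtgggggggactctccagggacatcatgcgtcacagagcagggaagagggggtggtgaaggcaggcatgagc

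The Cxcr4 window held 3 matches to the GC box (GGGCGG, all on the other strand, where they read CCGCCC), which begin 95, 75 and 50 bases before the start of the gene. A GC box was present in 32.7% of the 32851 RefSeq promoter windows of this length. Its summit lay at base 245 of the printed run, 6 bp from the annotated start, and 121 of the 250 bases were inside the peak. The guanine and cytosine content of the window was 61.2%, at the upper quartile of all windows (median 52.4%, quartiles 45.2% and 61.2%). In the Gm32249 window the summit lay at base 197, 54 bp from the annotated start, and the guanine and cytosine content was 51.2%. None of the 9 motifs matched there. The other 8 motifs, which matched neither window, were searched on both strands with no overlap among the matches found. They were the SMAD box CAGAC (in 42.2% of all windows), the palindromic SMAD site GTCTAGAC (0.167%), the AP-1 site TGACTCA (4.46%), the CRE TGACGTCA (1.55%), the ETS core GGAAGT (19.7%), the STAT site TTCCNGGAA (0.913%), the E-box CACGTG (6.02%) and the forkhead site TGTTTAC (3.17%). A match is a description of these letters only.

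At Ccr7 the summits lay on both sides of the gene and inside it. The gene spans 99144199 to 99155077 on chromosome 11 (mm10). Coordinates rise from its lower to its upper end. Of the 19 summits, 7 lay below the lower end, 3 inside the gene and 9 above the upper end. The median fold was 7.27, the quartiles were 5.43 and 10.4, and the extremes were 3.47 and 19.1. Of these, 13 of 19 were at or above the median of the whole list, against 50% of all peaks by definition.

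The highest Ccr7 member did not lie at the gene. It had 19.1-fold enrichment at 99098911 to 99099378, 45.0 kb below the lower end, and ranked 169 of 27050 by fold and 208 by −log10 q. This is also the outermost member on that side, and it is nearer to Tns4, which encodes a tensin of focal adhesions. From there towards Ccr7 the folds were 9.56 at 39.0 kb, 5.92 at 33.3 kb, 11.3 at 32.9 kb, 11.5 at 28.1 kb, 7.68 at 20.1 kb and 6.39 at 11.6 kb. The row of 7 summits therefore held 3 of 10-fold or more, all farther than 25 kb from the gene. Every summit from 28.1 to 45.0 kb below was nearer to Tns4 than to Ccr7.

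Inside Ccr7 and at its upper end the folds lay on both sides of the list median of 6.00, and all were below 10-fold. The summits inside the gene had 4.09-fold enrichment at 886 bp from the lower end, 4.54-fold at 3786 bp from it and 6.22-fold at 4384 bp from the upper end. A summit 218 bp above the upper end had 6.87-fold enrichment. These ranked between 9574 and 24321 by fold. They include the 2 members within 1000 bp of an end of Ccr7, of 4.09-fold and 6.87-fold.

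Above Ccr7 the fold rose and fell by turns. It was 9.46 at 5.94 kb, 4.94 at 13.2 kb, 9.23 at 16.0 kb, 12.8 at 25.1 kb, 13.1 at 45.2 kb and 3.47 at 49.0 kb from the upper end. The summit of 4.94-fold is the one at the start of Gm32249 printed above, and the next, of 9.23-fold, lay inside that noncoding gene. The 2 outermost summits lay inside other genes. The one of 7.27-fold at 75.5 kb lay inside Smarce1, 462 bp from its upper end. Smarce1 encodes a subunit of the BAF chromatin remodelling complex. The one of 4.90-fold at 83.7 kb lay inside Krt222, a gene of the keratin family. The summits at 45.2 and 49.0 kb, outside any protein-coding gene, were also nearer to Smarce1 than to Ccr7.

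**Figure D1:**
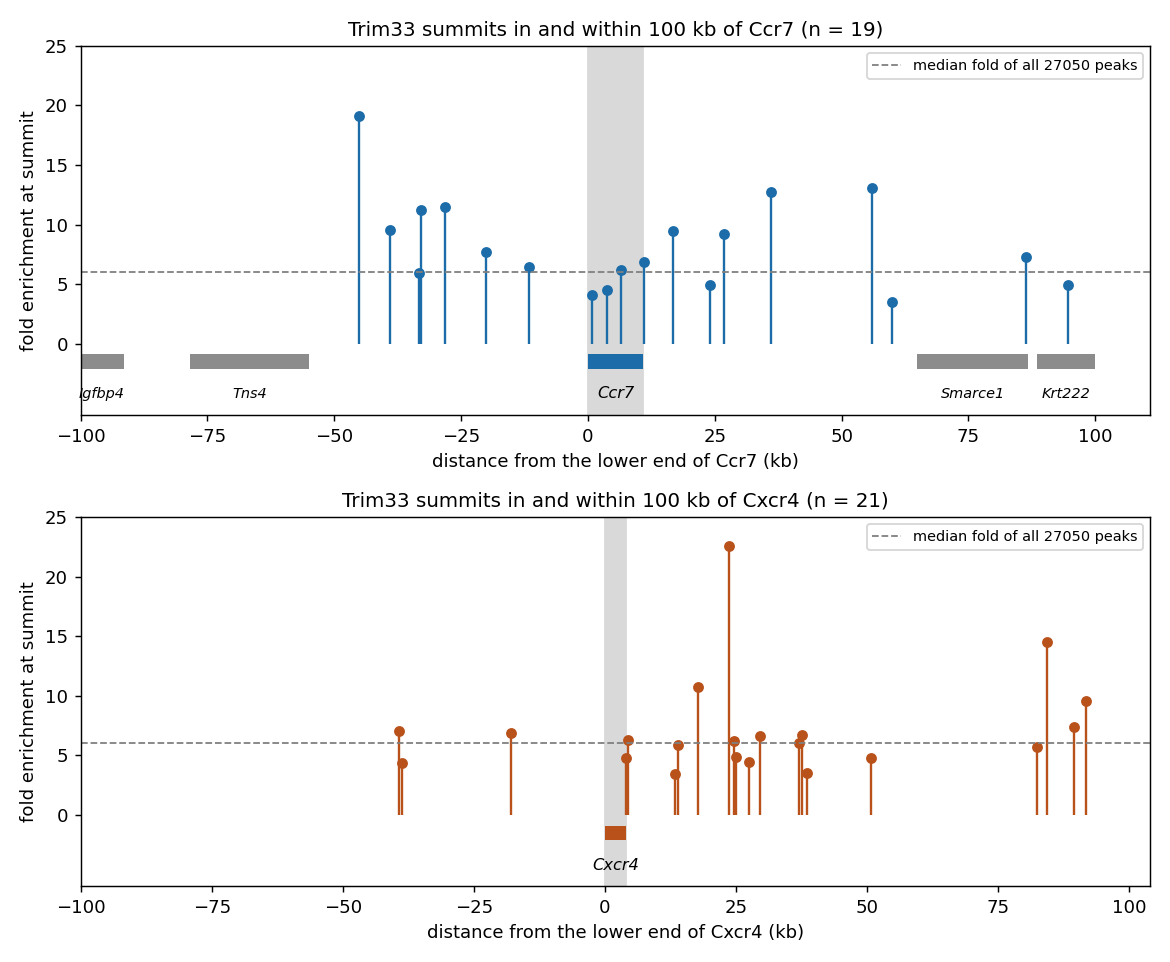
Fold enrichment at each Trim33 summit (y axis) against its distance in kb from the lower end of Ccr7 (top, 19 summits) and Cxcr4 (bottom, 21 summits), with the gene shaded, protein-coding neighbours as grey bars and the median of all peaks, 6.00, as a dashed line. The highest summits, of 19.1-fold and 22.5-fold, lie 45.0 kb below Ccr7 and 19.6 kb above Cxcr4, and those inside Ccr7 are between 4.09-fold and 6.22-fold.

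At Cxcr4 nearly all summits lay on the upstream side, and none lay inside the gene. Cxcr4 spans 128588199 to 128592299 on chromosome 1 (mm10) and is read from its upper end, on the minus strand, so higher coordinates are upstream. Of the 21 summits, 18 lay above the upper end and 3 below the lower end. The median fold was 6.16, the quartiles were 4.79 and 7.06, and the extremes were 3.47 and 22.5. Of these, 12 of 21 were at or above the median of the list. Cxcr4 was the nearest protein-coding gene for all 21 members, against 10 of 19 for Ccr7. Cxcr4 has no protein-coding neighbour within 100 kb: the nearest are Dars, an aminoacyl-tRNA synthetase gene 170.8 kb below, and Thsd7b, 680.9 kb above.

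The start of Cxcr4 carried a close pair of modest summits. One, of 4.75-fold, is in the sequence above, and the other, of 6.25-fold, lay 336 bp upstream. Next came 3.47-fold at 9.31 kb and 5.88-fold at 9.88 kb, then 10.8-fold at 13.7 kb upstream. The highest member followed at 19.6 kb upstream. It had 22.5-fold enrichment at 128611583 to 128612319, and ranked 84 of 27050 by fold and 42 by −log10 q (133). It was also the widest member, with 737 bp against a median width of 227 bp in the whole list.

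Farther upstream the summits fell below 10-fold, on both sides of the list median of 6.00, before a further group. Behind the highest member lay summits of 6.16-fold at 20.5 kb, 4.89-fold at 20.9 kb, 4.46-fold at 23.3 kb and 6.66-fold at 25.5 kb. A group of 3 followed at 33.0 to 34.5 kb with 6.04-fold, 6.74-fold and 3.50-fold, and then 4.79-fold at 46.7 kb. After a stretch of 31626 bp with no summit, 4 summits lay at 78.3 to 87.6 kb with 5.68-fold, 14.5-fold, 7.42-fold and 9.56-fold. The 14.5-fold peak, at 80.2 kb, ranked 661 of 27050 and was the second highest at Cxcr4. Downstream of the gene the 3 summits had 6.89-fold enrichment at 18.0 kb, 4.36-fold at 38.7 kb and 7.06-fold at 39.3 kb. The outermost of these lay inside Gm41950, a noncoding gene, and the one at 38.7 kb lay 118 bp beyond the end of Gm41950.

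The members next to the 100 kb limit, and the summits just beyond it, were as follows. At Ccr7 the farthest member, of 4.90-fold at 83.7 kb, was followed by a summit of 4.81-fold at 100.4 kb, just outside. On the lower side the next summit after the 19.1-fold member lay 184.5 kb from Ccr7 with 10.4-fold enrichment. At Cxcr4 the farthest member, of 9.56-fold at 87.6 kb, was followed by 4.99-fold at 109.2 kb. On the downstream side the next summit lay 140.8 kb from Cxcr4 with 9.06-fold.

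High peaks were found in the windows of both genes. Of the 19 Ccr7 members, 5 (26.3%) had 10-fold enrichment or more, against 11.1% of all peaks, with an exact binomial (Clopper-Pearson) 95% interval of 9.15% to 51.2%. Of the 21 Cxcr4 members, 3 (14.3%, interval 3.05% to 36.3%) did. The intervals cover counting error only and take neighbouring summits as independent, and nothing is read from them about a difference from the list. At Ccr7 all 5 lay between 25.1 and 45.2 kb from the gene, on both sides. Only the 12.8-fold one had Ccr7 as its nearest protein-coding gene. Those of 19.1-fold, 11.3-fold and 11.5-fold were nearer to Tns4, and that of 13.1-fold was nearer to Smarce1. At Cxcr4 the 3 lay at 13.7, 19.6 and 80.2 kb, all upstream.

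Fold was then mapped against distance. At Ccr7 the 9 summits in the gene or within 25 kb had a median of 6.39 (from 4.09 to 9.46), and the 10 farther ones a median of 10.4 (from 3.47 to 19.1). The near median was thus below the far median by 4.02 (a difference of −4.02). The values overlapped. The 12.8-fold summit lay just past the border, at 25.1 kb, and the 7.68-fold summit at 20.1 kb was the nearest to it inside. All 9 near summits had Ccr7 as their nearest protein-coding gene, but of the 10 farther ones only the 12.8-fold summit did. The difference at Ccr7 thus also sets summits nearest to Ccr7 against summits nearer to Tns4, Smarce1 or Krt222. At Cxcr4 the 10 near summits had a median of 6.02 (from 3.47 to 22.5) and the 11 farther ones 6.66 (from 3.50 to 14.5), a difference of −0.63. Across the members, Spearman's rho of fold with distance was 0.26 at Ccr7 (n = 19) and 0.22 at Cxcr4 (n = 21), given as a description. With the border at 10 kb the differences were −2.24 at Ccr7 and −1.34 at Cxcr4. With the border at 50 kb the difference at Cxcr4 was −2.45, and the direction at Ccr7 turned (a difference of 1.60), where the far side held 2 summits, those in Smarce1 and Krt222.

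**Figure D2:**
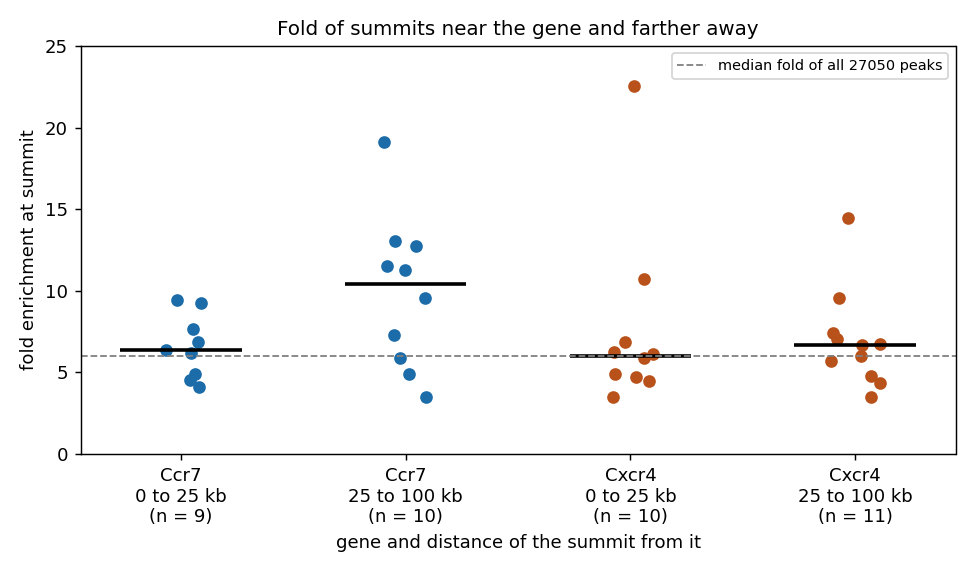
Fold enrichment of each summit (points) by gene and by distance from the gene (0 to 25 kb, gene body included, or 25 to 100 kb), with the median of each set as a bar and the median of all peaks as a dashed line. At Ccr7 the medians are 6.39 and 10.4 and the points overlap, and at Cxcr4 they are 6.02 and 6.66. Of the Ccr7 summits at 25 to 100 kb, only the 12.8-fold one has Ccr7 as its nearest protein-coding gene.

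The same difference was taken for all 4036 protein-coding genes with at least 3 summits on each side of the border. The near median was below the far median in 51% of them, and the median difference was −0.03. A difference as low as that of Ccr7 or lower occurred in 2.63% of them, and one as low as that of Cxcr4 in 34.3%. These genes share summits where their windows overlap, so the shares describe this list only. Far summits were counted whether or not another gene was nearer.

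The median spacing differed between the clusters, while their quartile ranges overlapped. At Ccr7 neighbouring summits were a median of 5873 bp apart (quartiles 3987 and 8406 bp, from 394 to 26497 bp). At Cxcr4 the median was 2365 bp (quartiles 788 and 7798 bp, from 330 to 31626 bp). Over all 27029 neighbouring summits on the same chromosome it was 19980 bp (quartiles 4667 and 59401 bp). A short gap is part of what makes a cluster, so the lower medians follow from the choice of these genes. With peaks at or above the median fold the medians were 8261 bp at Ccr7 and 5942 bp at Cxcr4, and with peaks at or above the median −log10 q 7032 and 5942 bp, so the contrast between the genes was smaller.

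Short gaps were more frequent at Cxcr4 in the full list. Of its 20 gaps, 6 (30.0%) were under 1000 bp, against 10.4% of all gaps, and 12 (60.0%) were under 5000 bp, against 25.9%. At Ccr7 1 of 18 gaps was under 1000 bp (5.56%) and 7 (38.9%) were under 5000 bp. That 1 gap, of 394 bp, separates the 5.92-fold and 11.3-fold summits 33 kb below Ccr7. The gaps under 1000 bp at Cxcr4 include those of 330 bp between the pair at the start and of 826 and 434 bp behind the 22.5-fold summit.

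**Figure D3:**
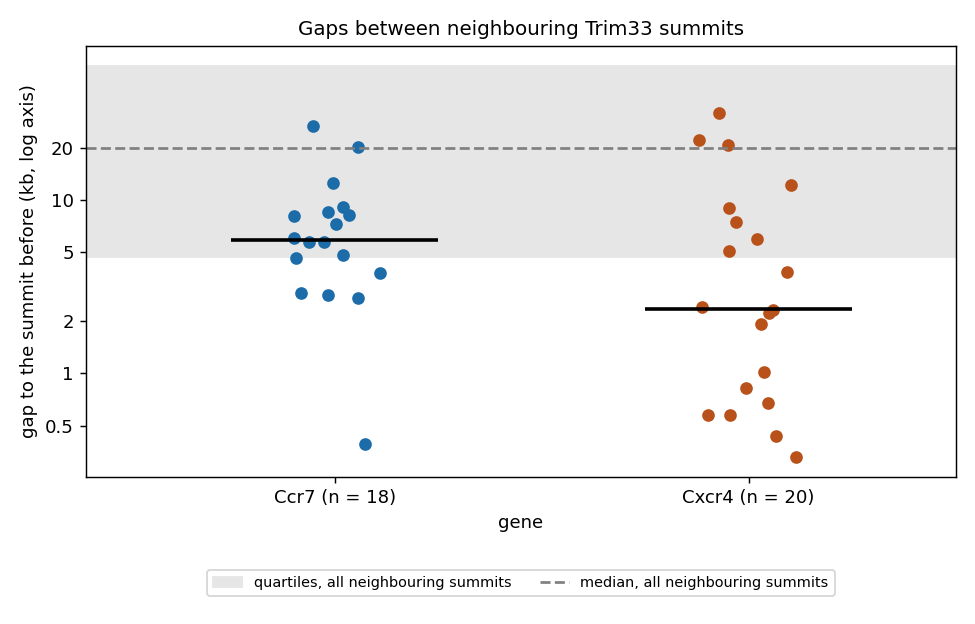
Gap in kb (log axis) between each summit and the one before it at Ccr7 (18 gaps) and Cxcr4 (20 gaps), with the median as a bar, beside the median (dashed line, 19980 bp) and quartiles (grey band, 4667 and 59401 bp) of all gaps in the list. Most gaps of both genes lie below the median of the list, and 6 of Cxcr4 but 1 of Ccr7 are under 1000 bp.

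When summits no more than 12.5 kb apart were joined into chains, 15 of the 19 Ccr7 members formed a single chain of 81.1 kb from 99099153 to 99180221, which takes in the whole gene. Of 16095 chains in the list, 0.0435% (7 chains) had as many summits or more. By summed fold (129.6) the chain ranked 4. It holds together by a gap of 12453 bp between the 6.39-fold summit below Ccr7 and the first summit inside it, just under the joining distance. With 5000 bp in its place the longest chain at Ccr7 had 4 summits. The longest chain at Cxcr4 had 14 of the 21 members over 46.7 kb, from the start of the gene upstream to 128638981, with a summed fold of 96.9. As many or more were in 0.0746% of chains (12 chains), and by summed fold it ranked 19. A gap of 12141 bp ties its last summit to the rest, and with 5000 bp the longest chain had 5 summits. Of all chains in the list, 63.6% were single summits.

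Peak width and fold moved together at both genes, as in the list as a whole. The median width was 306 bp at Ccr7 (from 140 to 527 bp) and 208 bp at Cxcr4 (from 138 to 737 bp). Spearman's rho of fold with width was 0.66 at Ccr7 and 0.64 at Cxcr4, and 0.49 over all 27050 peaks. The −log10 q at the summit ran from 3.06 to 71.3 at Ccr7 (median 15.3) and from 3.77 to 132.5 at Cxcr4 (median 13.3), against a median of 11.2 in the list. Fold, width and q come from the same reads, so these are not separate measurements.

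In number of summits, both genes stood in the upper tail of all genes. Protein-coding genes had a median of 4 summits in the gene and within 100 kb (quartiles 1 and 7). Of 21887 such genes, 0.818% (179 genes) had 19 or more and 0.402% (88 genes) had 21 or more. Longer genes have wider windows. Among the 11848 genes under 20 kb in length, to which both members belong, 72 (0.608%) had 19 or more and 29 had 21 or more. The highest fold in the window was at least that of Ccr7 in 2.25% of genes and at least that of Cxcr4 in 1.06%.

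Counted over the whole window of each gene, the other chemokine receptor genes had lower highest peaks and, but for Ccr4 and Xcr1, fewer summits. All 19 receptors analysed were matched by symbol. Of these, 18 had a summit in the gene or within 100 kb, against 78.6% of all protein-coding genes. The median over all 19 was 8 summits. A peak of 10-fold or more was present for 9 of 19, against 31.1% of all genes. Many of these genes sit side by side and share summits: Ccr2 and Ccr3 have the same highest peak of 15.5-fold, as do Ccr9, Cxcr6 and Xcr1 with 12.6-fold and Ccr8 and Cx3cr1 with 14.7-fold. The shares over the list are thus not over independent genes.

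None of these receptors reached the 19.1-fold and 22.5-fold found in the windows of Ccr7 and Cxcr4, and 2 had at least 19 summits. The 19.1-fold summit was nearer to Tns4 than to Ccr7. The highest summit with Ccr7 as its nearest protein-coding gene had 12.8-fold enrichment. That is below the 15.5-fold in the windows of Ccr2 and Ccr3 and the 14.7-fold in those of Ccr8 and Cx3cr1. Nearest genes were not listed for the peaks of the other receptors. Xcr1, the receptor for XCL1, had 21 summits up to 12.6-fold, none of them inside the gene. Ccr4, a receptor of skin-homing and Th2 cells, had 19 summits up to 11.4-fold, the highest 21.5 kb below the gene. Ccr6, which marks Th17 cells, had 10 summits up to 10.8-fold, the highest 47.5 kb above it. Cxcr3, a Th1 receptor, had 6 up to 8.87-fold and Cxcr5, a receptor of follicular T cells, 8 up to 6.82-fold. Ackr3, the atypical receptor that also binds CXCL12, had no summit.

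**Figure D4:**
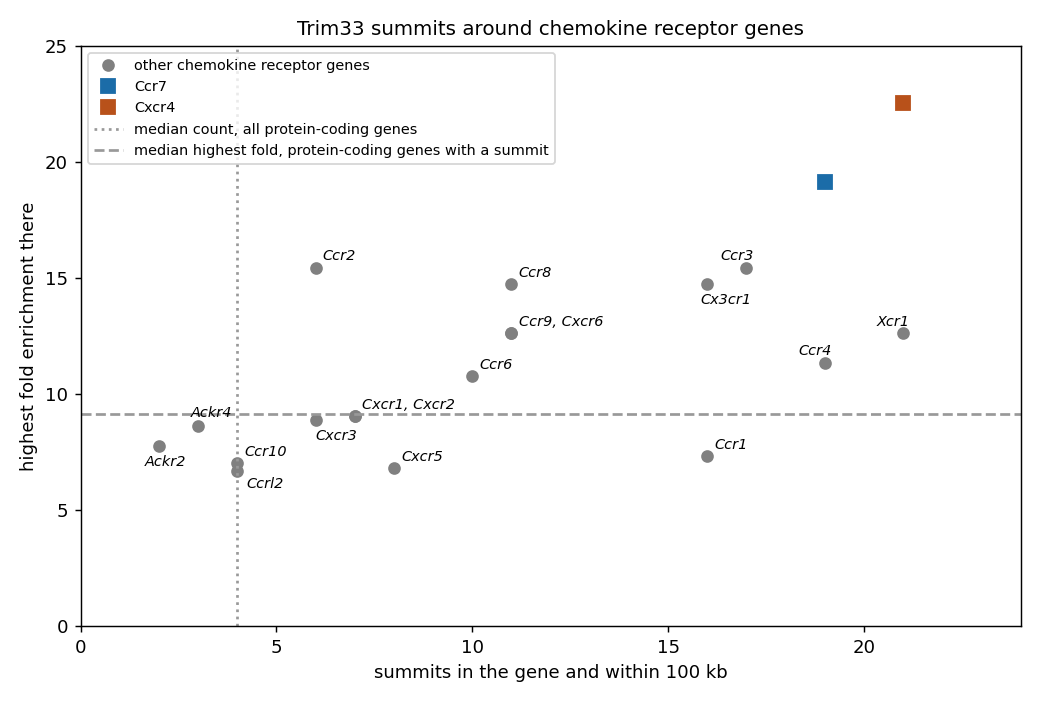
Highest fold enrichment (y axis) against the number of Trim33 summits in the gene and within 100 kb (x axis) for Ccr7, Cxcr4 and the 18 other chemokine receptor genes with a summit. Lines mark the medians over protein-coding genes, 4 summits and a highest fold of 9.16. Ccr7 and Cxcr4 lie above the other receptors in highest fold in the window, but the highest summit in the Ccr7 window is nearer to Tns4.

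The ligands of the receptors had no summit. Ccl19, Ccl21a, Ccl21b, Ccl21c and Cxcl12, which are made by stromal cells, had 0 summits in the gene and within 100 kb, as did 21.4% of all protein-coding genes. The Ccl21 genes are close copies of each other, so reads from them may not have been placed and their zeros are uncertain. Ccl21c is annotated at 59769 to 60899 of chromosome 4, far from the other Ccl21 genes, and that placement was not checked. The windows of Ccl19 and Ccl21a overlap, so their zeros are not separate observations.

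Other genes of T cell homing and egress had summits in 9 of 9 cases, against 78.6% of all protein-coding genes, with a median of 10 against 4. Itgal, which encodes the alpha chain of the integrin LFA-1, had 14 summits and reached 21.9-fold at 2.58 kb below the gene. Itgb2, its beta chain, had 14 summits up to 13.1-fold inside the gene. Il7r had 18 up to 10.3-fold, Foxo1 8 up to 11.2-fold and Klf2 10 up to 10.03-fold. Foxo1 and Klf2 encode transcription factors of naive T cell trafficking. S1pr1, the receptor that directs exit from lymph nodes, had 4 summits up to 6.89-fold. A peak of 10-fold or more was present for 6 of 9 genes of this list, against 31.1% of all protein-coding genes.

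Genes that act downstream of chemokine receptors had summits in 13 of 13 cases, against 78.6% of all protein-coding genes, with a median of 8. Of these, 5 of 13 had a peak of 10-fold or more, near the 31.1% of all protein-coding genes. Rgs1, which shortens G protein signals, had 17 summits up to 14.0-fold, and the receptor kinase gene Grk5 had 15 up to 15.2-fold, of which 11 lay inside the gene. Gnai2, a G protein alpha subunit used by both receptors, had 15 summits up to 9.48-fold. Dock2, an activator of Rac in lymphocyte migration, had 7, all inside the gene and up to 9.44-fold.

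Genes with the most similar spread of fold over distance were sought as well. Likeness was Pearson's r over 11 bins (the gene, then each 10 kb up to 100 kb) of summed fold, among genes with at least 10 summits whose windows do not overlap. Nearest to Ccr7 were Crebl2 (r = 0.91), Dhx37 (0.89) and Vcp (0.84), and nearest to Cxcr4 were Zbtb42 (0.93), Exosc5 (0.92) and Pvr (0.92). These are the best of 2851 and 2857 genes in a single merged list. The highest folds in their windows, from 8.06 to 12.9, were all lower than those in the windows of Ccr7 and Cxcr4.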

How the data were processed

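The submitters' processing notes name Trim Galore 0.3.7 and Bowtie 1.2.1.1 for the reads, MACS2 2.1.1.20160309 for the peaks and mm10 as the build. How MACS2 was set, and against which control, is not given in the sources used here. Per the peak names, the list is of merged ChIP replicates. The names do not say whether the merging came before or after calling, so a listed site need not be a peak in each library. The deposited list gives for each peak the authors' fold (a ratio to background), −log10 q and score. The deposited score is 10 times the −log10 q, cut to a whole number (true of 100% of peaks), and was left out.

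Summits, counted from 1, were assigned to genes of a RefSeq table of the same assembly (21887 protein-coding genes) with Python 3.11.15, numpy 2.4.6, pandas 2.3.3 and scipy 1.17.1. The assignment to windows and the number of chains were checked on summits planted outside the bodies of 200 genes, and all were recovered. Summits inside a gene were not planted, and which summits form a chain was not checked. Since libraries have no values of their own, no test was made, and binomial intervals of shares describe counting error only. Named genes were the members, their neighbours, 4 gene lists (some listed genes are not reported here) and the 3 genes of most similar profile. The members and lists were chosen with earlier results of these data known. Alternatives were stricter peak sets, other windows, borders, joining distances and thresholds, the middle of the peak, and joined summits. Promoter sequences were taken from RefSeq, and sequences of other peaks were not used here.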

Additional observations from a re-analysis of the deposited data

How the results depend on the processing

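Of 104 values recomputed under alternatives, 85 stayed the same by the rule for their kind, and 1 turned its direction. Counts had to stay within 1.5 times, and medians and shares within their counting interval. The distance of the highest summit had to stay within the width of its peak. Differences between near and far medians had to stay within the outer limits of the intervals of both medians. That range is wide, and −2.24 at Ccr7 with a border of 10 kb, against −4.02, was taken as the same. The value that turned was the difference between near and far medians at Ccr7, 1.60 with a border of 50 kb, where 2 summits were left on the far side. With peaks at or above the median fold, or at or above the median −log10 q, Cxcr4 kept 12 summits, the longest chain had 6 summits at each gene, and 1 Ccr7 member was at or in another gene in place of 2. With a window of 50 kb that last number was 0. With a window of 25 kb it was 0 too, Ccr7 had 9 summits and Cxcr4 10, the longest chain had 9 summits at each gene, 0% of Ccr7 members reached 10-fold, and the highest Ccr7 summit lay 5938 bp from the gene. These fall by construction, since each setting leaves fewer summits. With a joining distance of 5000 bp the longest chains had 4 (Ccr7) and 5 (Cxcr4) summits. The depth of the libraries is unknown, so summits below the authors' threshold cannot be judged. No paired analysis was possible because the only list is of the merged ChIP replicates.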
